A study of Mus musculus with 16 samples.

Results

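The Oct4 locus of the 5C design is a 2096 kb stretch of mouse chromosome 17 (mm9 chr17:34430392-36526391), a gene-dense part of the major histocompatibility complex, and it is described here by its chromatin contacts. Its members are the forward-reverse primer pairs with both primers in the locus, apart from pairs with a restriction fragment centred in 2 windows that were not analysed here. They number 24016 of the 92436 forward-reverse pairs within the 7 loci of the design, and they join 152 forward and 158 reverse primers whose fragments have a median length of 3182.5 bp.

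The study asked how chromatin folding differs between pluripotent and early neural cells. The groups were NPCs, ES cells in serum and ES cells in 2i, with 2 libraries of 5C each. The NPCs were primary neural progenitor cells taken from whole brains of P1 mice of a 129SvJae x C57BL/6 background that carry Sox2-eGFP, grown first as neurospheres and then as an adherent layer on poly-D-lysine and laminin. The ES cells were the male V6.5 line, also 129SvJae x C57BL/6, grown with LIF either in serum or in serum-free 2i medium, which holds the inhibitors CHIR99021 and PD0325901. V6.5 is 1 cell line, so differences between NPCs and ES cells are also differences between a line and a primary culture, which cannot be told apart here. All 6 libraries were fixed in formaldehyde and cut with HindIII. The labels do not say whether replicates were separate cultures, so p-values measure the spread between these libraries, which may be technical. No measure of expression was analysed here, so the cell types were not checked against marker genes.

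5C counts ligation products between chosen restriction fragments, each read by a forward primer on 1 fragment and a reverse primer on the other, so a high count means that the fragments were often close together or that their primers work well. Mammalian chromosomes fold into domains whose parts touch each other more than they touch the neighbouring domain, and the border between them is called a boundary. CTCF is a zinc-finger protein that binds DNA at many such boundaries and loop anchors, where it halts the ring-shaped complex cohesin. The major histocompatibility complex carries genes for antigen presentation packed among many genes of other functions.

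The member pairs received 3408704 and 3246826 counts in the NPC libraries, 7554640 and 7610429 in the serum libraries and 3482918 and 3634979 in the 2i libraries. These were 22.1 to 29.6% of the counts within and between all loci. Of the 24016 pairs, 530 had no count in any library and 19564 had one in all 6. The locus was divided into 131 windows of 16 kb, of which 112 held a primer, 17 held none and 2 were left out. The longest stretch without a primer was 80 kb (chr17:35534392-35614391), and stretches of 48 kb lay at chr17:36190392-36238391 and chr17:36462392-36510391. Replicates correlated in observed over expected contact at r = 0.834 in NPCs, 0.897 in serum and 0.896 in 2i over window pairs, which share libraries and depth and are no independent points.

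A handful of primer pairs held a large part of all counts of the locus. The 10 pairs with the highest mean share over the groups held 20.6 and 16.7% of the counts in NPCs, 24.3 and 26.8% in serum and 17.2 and 16.9% in 2i. The fewest pairs that together held 50% of the counts were 177 and 243 in NPCs, 320 and 323 in serum and 401 and 543 in 2i. The range in 2i lies above that in serum, and the range in serum above that in NPCs, so counts were spread over the largest number of pairs in 2i. In the other 6 loci, no single pair held more than 6.21% of a library's counts. The 10 leading pairs of a locus held a mean of 20.4% here and 34.0% in the gene-desert locus, which has only 576 pairs. In the remaining loci they held 5.38 to 10.1%.

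One pair stood far above the rest. It joined forward primer 24 (fragment chr17:34532082-34532748, 667 bp) to reverse primer 5 (fragment chr17:34442859-34444375, 1517 bp), 88.8 kb apart near the proximal end of the locus. Its counts were 442588 and 338214 in NPCs, 1457433 and 1740219 in serum and 424429 and 432056 in 2i. That was 13.0 and 10.4% of the locus's counts in NPCs, 19.3 and 22.9% in serum and 12.2 and 11.9% in 2i. Both serum libraries were above all others, and the NPC and 2i libraries overlapped. The contact was not shared by its surroundings: the 13 pairs with both ends within 20 kb and neither of the primers had median counts of 166 and 176 in NPCs, 467 and 540 in serum and 228 and 222 in 2i, and none exceeded 2744. This single pair held 91.2 to 95% of all member counts of forward primer 24 and 93.5 to 97.8% of those of reverse primer 5.

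**Figure D1:**
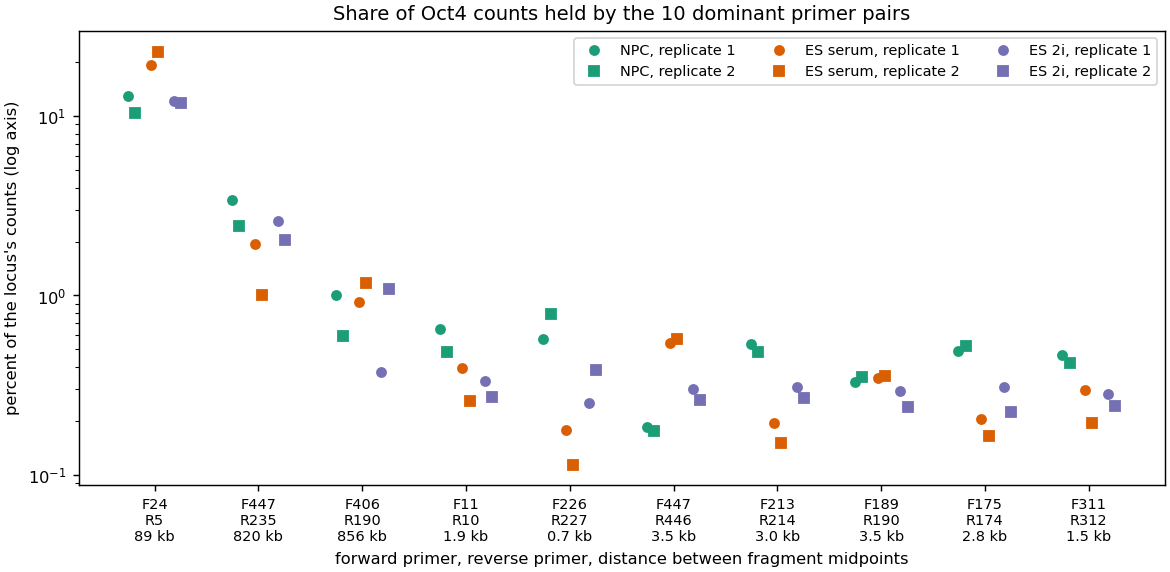
Share of the Oct4 locus's counts (percent, log scale) held by each of the 10 leading primer pairs in each of the 6 libraries, with NPC left of ES serum and ES 2i; each point is 1 library. The pair of forward primer 24 and reverse primer 5 lies between 10.4 and 22.9% in all libraries, above all other pairs.

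A test across all primer pairs of the 7 loci was made with edgeR's quasi-likelihood test on counts relative to each library's own decay of contact with distance, and a pair was called at an adjusted p (Benjamini-Hochberg) below 0.05. For the pair of forward primer 24 and reverse primer 5 the log2 fold change was 0.30 (SE 0.20, edgeR adjusted p = 0.453) for NPC against 2i, -0.62 (SE 0.20, edgeR adjusted p = 0.0486) for NPC against serum, and 0.92 (SE 0.20, edgeR adjusted p = 0.00952) for serum against 2i. The call against serum was lost without serum replicate 1 (edgeR adjusted p = 0.104), serum replicate 2 (0.255) or NPC replicate 2 (0.336), and that of serum against 2i without 2i replicate 2 (0.0753) or serum replicate 2 (0.0950). Primer effects were also taken out, that is the mean log observed over expected count of each primer's pairs in each library. This setting was added after seeing the data. NPC against serum then became 1.81 (edgeR adjusted p = 0.00934) and serum against 2i -0.76 (edgeR adjusted p = 0.599), so both directions turned. Over all tested pairs of forward primer 24 the median log2 fold changes were -1.36 and 0.78 in these comparisons. For reverse primer 5 they were -1.10 and 0.82.

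The next pairs in order joined fragments much farther apart. Forward primer 447 (fragment chr17:36288268-36291497) and reverse primer 235 (fragment chr17:35467699-35471315), 820 kb apart, had 115846 and 79068 counts in NPCs, 146927 and 76192 in serum and 90430 and 74248 in 2i. Its shares of the locus's counts were 3.40 and 2.44% in NPCs, 1.94 and 1.00% in serum and 2.60 and 2.04% in 2i. The 11 pairs around it had medians of 2 to 7 counts. In shares the serum libraries were below all others, and NPC and 2i overlapped. The log2 fold changes were 0.44 (edgeR adjusted p = 0.453) for NPC against 2i, 0.68 (edgeR adjusted p = 0.124) for NPC against serum and -0.24 (edgeR adjusted p = 0.647) for serum against 2i. Without serum replicate 1 the difference between NPC and serum was called, at 1.22 (edgeR adjusted p = 0.0336). With primer effects taken out it was called at 3.19 (edgeR adjusted p = 1.18e-04), and serum against 2i at -2.27 (edgeR adjusted p = 0.00673).

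Forward primer 406 (fragment chr17:36139541-36142500) and reverse primer 190 (fragment chr17:35284590-35285174), 856 kb apart, had 34436 and 19177 counts in NPCs, 69491 and 89213 in serum and 12972 and 39266 in 2i. Its shares were 1.01 and 0.591% in NPCs, 0.920 and 1.17% in serum and 0.372 and 1.08% in 2i. Its 27 surrounding pairs had medians of 7 to 18 counts and none exceeded 127. The shares of the 3 groups overlapped, and the 2i replicates stood far apart. The log2 fold change was 1.08 (SE 0.31, edgeR adjusted p = 0.0385) for serum against 2i, 0.36 (edgeR adjusted p = 0.587) for NPC against 2i and -0.72 (edgeR adjusted p = 0.132) for NPC against serum. The call of serum against 2i was lost without 2i replicate 1 (edgeR adjusted p = 0.294), serum replicate 1 (0.0637) or serum replicate 2 (0.239), and without NPC replicate 1 the fall against serum was called, at -1.16 (edgeR adjusted p = 0.0281). The fall against serum was also called with primer effects taken out, at -1.27 (edgeR adjusted p = 0.0188). The sequences of these primers were not used here, and the origin of the counts of these 3 pairs was not tested.

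The other 7 leading pairs all joined neighbouring fragments, with midpoints 0.712 to 3.49 kb apart and mean shares of 0.317 to 0.398%. One of them involved forward primer 447 again. With reverse primer 446, whose fragment is next to its own, it had 6304 and 5706 counts in NPCs, 40938 and 43611 in serum and 10459 and 9482 in 2i. The 3 groups did not overlap, and the log2 fold change was -1.14 (SE 0.22, edgeR adjusted p = 0.00824) for NPC against 2i, -2.42 (SE 0.23, edgeR adjusted p = 8.31e-06) for NPC against serum and 1.28 (SE 0.22, edgeR adjusted p = 0.00243) for serum against 2i. The NPC against 2i call was lost without 2i replicate 1 (edgeR adjusted p = 0.0659) or NPC replicate 2 (0.0652), and that of serum against 2i without serum replicate 2 (0.0514). With primer effects taken out, both NPC comparisons turned to 1.08 and the difference between serum and 2i was 0.0029 (edgeR adjusted p = 0.999). With plain TMM scaling and no distance trend, all calls of these 4 pairs were lost except that of primers 447 and 446 in NPC against serum.

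Forward primer 447 shifted as a whole. In NPC against serum, 138 of its 158 tested pairs were lower, with a median log2 fold change of -2.23, and in serum against 2i 115 of them were higher, with a median of 1.58. In NPC against 2i, 29 of them were lower and 1 higher. Across the 301 primers with at least 50 tested pairs, the median primer had 9.65% of its pairs called in its commoner direction in NPC against serum, 6.45% in serum against 2i and 1.63% in NPC against 2i. Only 5 primers had over 50% of their pairs called in 1 direction in NPC against serum, and 5 in serum against 2i, while none did in NPC against 2i. Forward primer 370 (fragment midpoint 35983093) had 94 of 131 pairs higher in NPC against serum and 93 lower in serum against 2i, and reverse primer 136 (midpoint 35049365) had 80 of 134 higher and 89 lower. Such a shift of most partners of a primer at once moves every window pair that the primer enters, and its origin was not tested. These primers were singled out after their values were seen.

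Over all members, 18587 of the 24016 pairs passed the filter on low counts. In NPC against serum 2938 were called (1314 higher, 1624 lower), 15.8% of those tested, beside 15.0% of the 76201 pairs of all loci (7.12% higher, 7.88% lower). In serum against 2i 2099 were called (1168 higher, 931 lower), 11.3%, beside 10.1% of all (4.95% higher, 5.19% lower). In NPC against 2i 611 were called (257 higher, 354 lower), 3.29%, beside 3.97% of all (1.45% higher, 2.52% lower). All 3 shares lie near those of all loci. With plain TMM scaling and no distance trend, the split became 254 higher and 1053 lower in NPC against 2i and 667 higher and 1611 lower in serum against 2i. The median log2 fold change of the members was then -0.22 and -0.21 in these comparisons, beside 0.04 and 0.13 with the trend. The counts depended on single libraries: NPC against 2i fell to 95 without 2i replicate 1 and to 342 without 2i replicate 2, NPC against serum to 1320 without serum replicate 1 and 1145 without serum replicate 2, and serum against 2i to values between 535 and 1139 without any 1 of its 4 libraries.

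Insulation was scored at 112 junctions between windows, as the mean log2 of observed over expected contact between the 160 kb on the left and the 160 kb on the right, minus the locus mean of that library. A low score marks a position that few contacts cross. The scores ran from -0.96 to 1.37 and from -0.87 to 1.22 in the NPC libraries, from -1.14 to 1.38 and from -1.15 to 1.39 in the serum libraries, and from -1.47 to 1.68 and from -1.13 to 1.49 in the 2i libraries. Replicate profiles correlated at r = 0.978 in NPCs, 0.997 in serum and 0.986 in 2i over the 112 junctions, which overlap and are no independent points. The NPC libraries had their highest scores at 35214392, and the ES libraries at 36190392 or 36206392, in a stretch of 48 kb without primers. Since scores are relative to the locus mean, a change in one stretch moves the rest of the locus the other way.

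**Figure D2:**
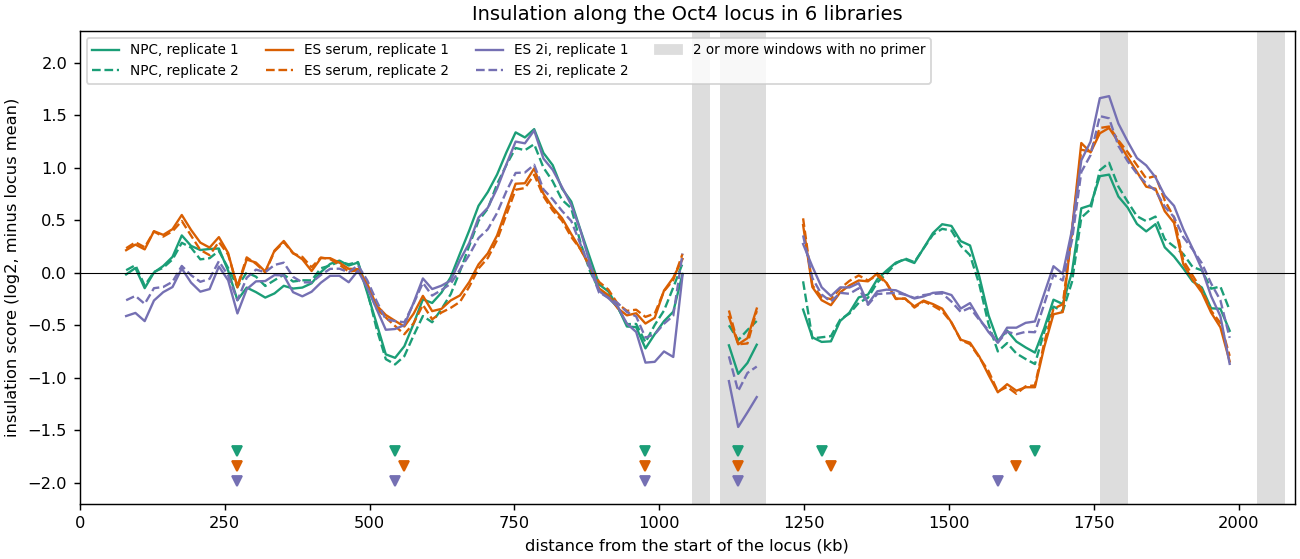
Insulation score (mean log2 observed over expected contact across a junction, relative to the locus mean) against distance from the start of the locus in kb, one line per library of NPC, ES serum and ES 2i, with triangles at the boundaries of each group and grey bands over windows with no primer. All 3 groups dip near 272, 544, 976 and 1136 kb, and they part most between 1376 and 1696 kb.

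Boundaries were the local minima of a group's mean score. NPCs had 6, ES cells in serum 6 and ES cells in 2i 5. All groups had 1 at 34702392 (272 kb from the start of the locus), with mean scores of -0.20 in NPCs, -0.13 in serum and -0.33 in 2i. All had 1 at 34974392 or the next junction (544 or 560 kb), with -0.84 in NPCs, -0.55 in serum and -0.50 in 2i, and 1 at 35406392 (976 kb), with -0.69 in NPCs, -0.45 in serum and -0.74 in 2i. The deepest minimum in 2i, -1.30 at 35566392 (1136 kb), was -0.80 in NPCs and -0.68 in serum, but it lies in the 80 kb without primers and rests on 29 of 100 window pairs. Farther right, NPCs had a boundary at 35710392 (1280 kb, -0.64) and serum at 35726392 (1296 kb, -0.28), while 2i had none there. These 2 junctions rest on 40 and 50 of 100 window pairs. At 35726392 the 2i score was -0.25, and serum against 2i was not called (difference -0.03, limma adjusted p = 0.598). The last boundary lay at 36078392 (1648 kb, -0.82) in NPCs, at 36046392 (1616 kb, -1.14) in serum and at 36014392 (1584 kb, -0.66) in 2i. At 36014392 the NPC score was -0.70, and NPC against 2i was not called (difference -0.04, limma adjusted p = 0.718).

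Not all of these held when the calculation changed. There were 7 alternative settings. That with a prominence of at least 0.1 only loosens the rule, so it could lose no boundary and is a sure hit in each count. Over the 7, the boundary at 544 kb was found in all 7 in NPCs and 6 in 2i, and its serum counterpart at 560 kb in 4. That at 976 kb was found in 6 in NPCs, 7 in serum and 6 in 2i. The boundary at 272 kb was found in 5 in NPCs, 4 in serum and 3 in 2i, and that at 1136 kb in 4 in NPCs, 4 in serum and 5 in 2i. The serum boundary at 1616 kb was found in 6, the NPC boundary at 1648 kb in 5 and the 2i boundary at 1584 kb in 3. The boundaries at 1280 kb in NPCs and 1296 kb in serum were lost with window effects taken out, that is with the mean level of each window in each library removed (a setting added after seeing the data), and in the authors' deposited observed scores. In 2i a boundary was found at 35726392 with a prominence of at least 0.1 and with 5 or 20 windows on each side. The contrast with 2i there thus rests on the setting. The distal 2i boundary also moved. It lay at 36078392, as in NPCs, with window effects taken out. With 5 windows on each side 2i had a boundary at 36078392 (-0.61), again as in NPCs, and a deeper one at 35950392 (-1.26). In that setting serum also had one at 35950392 (-1.49), and NPCs had one at 35966392 (-0.65). In the authors' deposited observed scores the distal 2i boundary lay at 36046392, as in serum.

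Insulation differed between groups at most junctions, in this locus as in the others. By limma's moderated test over the 380 junctions of all loci, 82 of the 112 junctions were called in NPC against serum (35 higher, 47 lower), 73.2%, beside 74.2% of all (36.3% higher, 37.9% lower). In NPC against 2i 73 were called (36 higher, 37 lower), 65.2%, beside 72.1% of all (37.4% higher, 34.7% lower), and in serum against 2i 68 (32 higher, 36 lower), 60.7%, beside 57.9% of all (28.4% higher, 29.5% lower). Without centring on the locus mean the split became 28 higher and 63 lower in NPC against serum and 44 higher and 25 lower in serum against 2i. Neighbouring junctions share window pairs, so these counts are runs rather than separate events.

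The largest difference lay in the distal part of the locus. At 35950392 (1520 kb) the score was 0.30 and 0.26 in NPCs, -0.64 and -0.64 in serum and -0.34 and -0.37 in 2i. More contacts crossed this position in both NPC libraries than in any ES library, by 0.92 against serum (SE 0.04, limma adjusted p = 5.73e-11) and by 0.64 against 2i (SE 0.04, limma adjusted p = 2.38e-09). The differences were 0.54 and 0.45, and still called, with window effects taken out. With 320 kb on each side they were 0.34 (limma adjusted p = 1.85e-04) and 0.14 (limma adjusted p = 0.0104). The difference belonged to a run of 18 higher junctions from 35822392 to 36094392 against serum, and of 12 from 35806392 to 35982392 against 2i. At 35934392 the difference against 2i was 0.67 (limma adjusted p = 1.52e-09), but it shrank to 0.08 (limma adjusted p = 0.0935) with 320 kb on each side.

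On both sides of this run NPCs scored lower. With window effects taken out the differences were smaller at the junctions named below, but in the distal part of the right side the sign turned. Against 2i the difference went from -0.27 to 0.20 at 36334392 and from -0.12 to 0.34 at 36366392. At 35694392 (1264 kb) the score was -0.62 and -0.63 in NPCs, -0.14 and -0.12 in serum and 0.06 and -0.05 in 2i, a difference of -0.62 against 2i (SE 0.05, limma adjusted p = 7.50e-09) that was -0.07 with window effects taken out and turned to 0.18 with 320 kb on each side. At 35678392 it was -0.35 and -0.08 in NPCs, 0.45 and 0.52 in serum and 0.27 and 0.36 in 2i, a difference of -0.70 against serum (SE 0.07, limma adjusted p = 1.67e-07), which was -0.14 with window effects taken out and -0.10 (limma adjusted p = 0.111) with 320 kb on each side. The scores at 35694392 and 35678392 each rest on 30 of 100 window pairs. To the right, runs of 20 lower junctions from 36062392 to 36366392 against 2i and of 12 from 36142392 to 36318392 against serum followed. There, at 36158392, the score was 0.61 and 0.52 in NPCs, 1.24 and 1.17 in serum and 1.07 and 0.96 in 2i (difference against serum -0.63, SE 0.09, limma adjusted p = 1.06e-05), and the difference was -0.27 with window effects taken out and -0.19 with 320 kb on each side. At 36190392, in the stretch of 48 kb without primers, it was 0.92 and 0.98 in NPCs, 1.33 and 1.38 in serum and 1.66 and 1.49 in 2i, a difference of -0.63 against 2i (SE 0.14, limma adjusted p = 9.10e-04) that was -0.27 with window effects taken out and lost its call without either NPC library.

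The ES states differed from each other in other places. At 34542392 (112 kb) the score was 0.22 and 0.24 in serum, against -0.46 and -0.30 in 2i, a difference of 0.61 (SE 0.05, limma adjusted p = 1.34e-07) within a run of 14 higher junctions from 34510392 to 34718392. It was 0.18 with window effects taken out. The run begins within the span of the leading pair of forward primer 24 and reverse primer 5, and the difference was still called without the 10 leading pairs. At 36046392 (1616 kb) it was -1.12 and -1.15 in serum, against -0.52 and -0.59 in 2i, a difference of -0.58 (SE 0.08, limma adjusted p = 2.97e-05) within a run of 15 lower junctions from 35902392 to 36126392. It was -0.35 with window effects taken out and -0.36 with 320 kb on each side. The serum libraries were lowest of the 6 at this boundary and did not overlap with either other group.

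**Figure D3:**
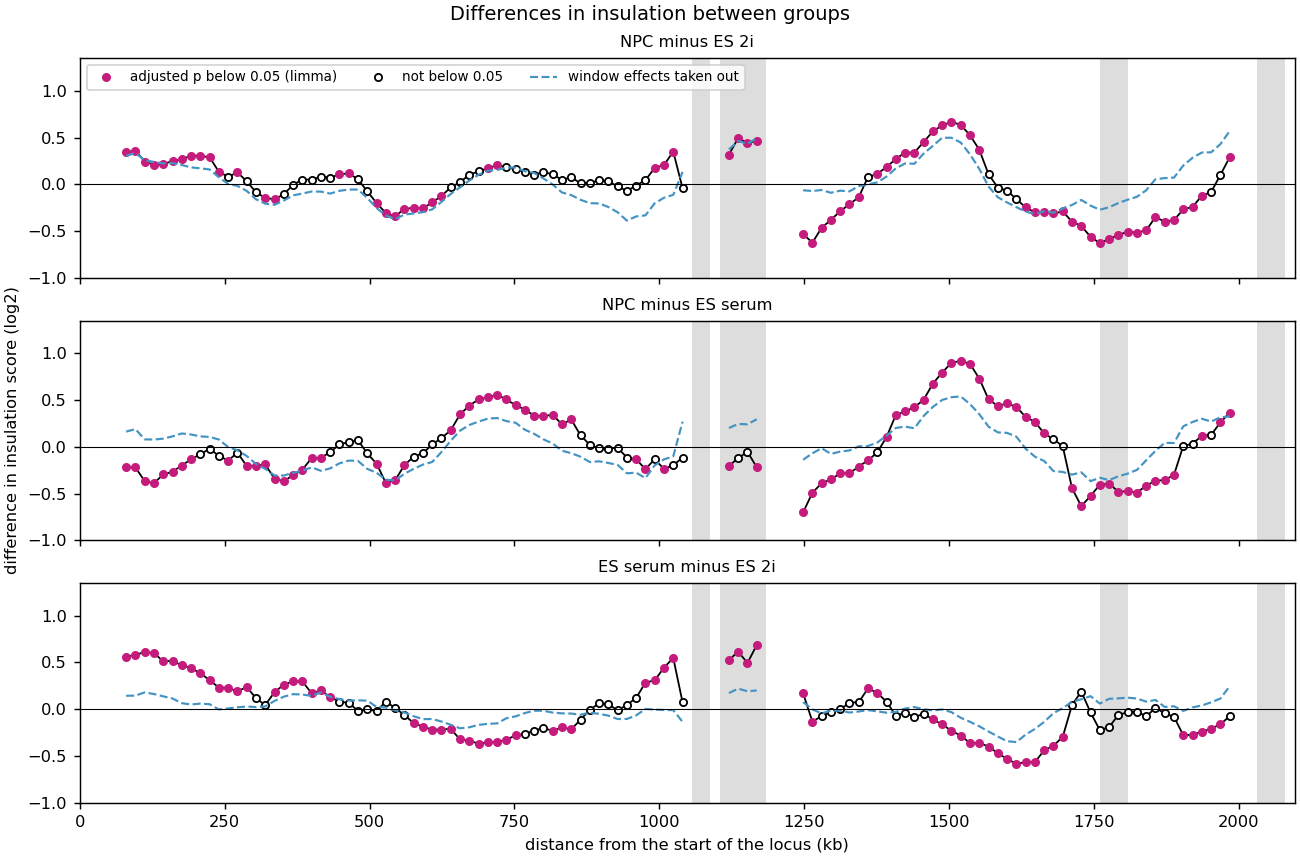
Difference in insulation score (log2) against distance from the start of the locus in kb, for NPC against ES 2i, NPC against ES serum and ES serum against ES 2i, as points joined by a line, and as a dashed line with window effects taken out; filled points passed the threshold and grey bands hold no primer. NPC lies above both ES groups around 1520 kb, where the differences are 0.64 and 0.92, and below them around 1264 and 1728 kb.

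The mean score over the 3 groups had 6 boundaries, which cut the locus into 7 domains of 160 to 512 kb. Domain 1 (34430392 to 34702391) and domain 2 (34702392 to 34974391) span 272 kb each, domain 3 (34974392 to 35406391) 432 kb, domain 4 (35406392 to 35566391) and domain 5 (35566392 to 35726391) 160 kb each, domain 6 (35726392 to 36014391) 288 kb and domain 7 (36014392 to 36526391) 512 kb. Domain 3 held 83 primers, while domain 4 held 11 and domain 5, which contains the windows left out, held 15, so both are poorly covered. Since the domains were drawn from these contacts, high contact within them is a consequence of how they were chosen.

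**Figure D4:**
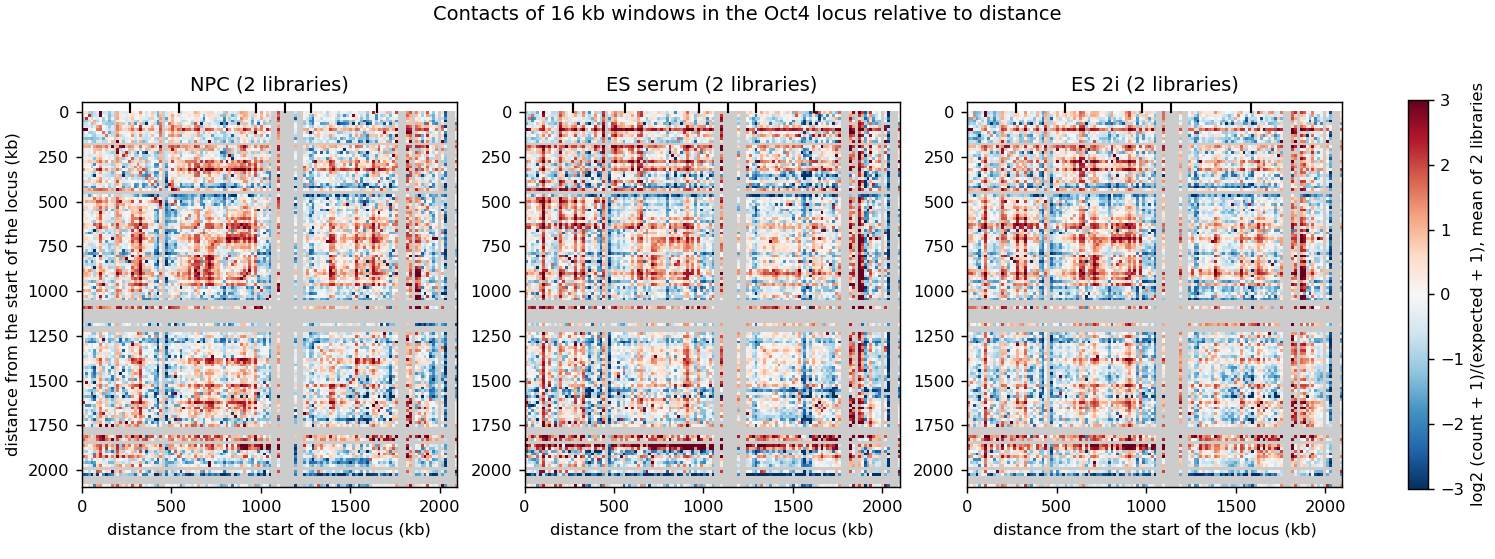
Mean log2 observed over expected contact between 16 kb windows of the Oct4 locus in NPC, ES serum and ES 2i, both axes in kb from the start of the locus, with ticks on top at the boundaries of the group; grey windows hold no primer or were left out. The block of domain 3 (544 to 976 kb) is red in each group, and single windows stand out as stripes over the whole locus.

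Domain 3 had the highest contact of the 7 domains before window effects were taken out. Its mean log2 observed over expected contact was 0.92 and 0.79 in NPCs, 0.58 and 0.57 in serum and 0.89 and 0.67 in 2i, over 345 window pairs. Both NPC libraries were above both serum libraries, and NPC and 2i overlapped. With window effects taken out, the means were 0.28 and 0.28 in NPCs, 0.24 and 0.22 in serum and 0.28 and 0.25 in 2i, so the gap between NPC and serum was much smaller, and domain 3 was below domain 4 in NPCs (0.54 and 0.39) and below domain 2 in serum (0.29 and 0.29). Window pairs were tested with edgeR as the primer pairs were, on the summed counts of their primer pairs. Of the 345 window pairs of domain 3, 107 were higher and 27 lower in NPC against serum, 38.8% in all, beside 29.3% of window pairs of all loci. In serum against 2i 10 were higher and 68 lower, 22.6%, beside 22% of all loci, and in NPC against 2i 25 were higher and 19 lower, 12.8%, beside 17% of all loci. Pairs within domain 3 span less than its 432 kb, and calls depended on distance. In NPC against serum 46.7% of all window pairs of this locus below 96 kb were called. From 96 to 304 kb it was 39.1%, and from 304 to 800 kb 26.5%.

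Domain 6 had more contact in NPCs than in either ES state. Its mean was 0.15 and 0.15 in NPCs, -0.17 and -0.14 in serum and -0.20 and -0.16 in 2i, so the NPC libraries did not overlap with the ES libraries. Of 152 window pairs, 45 were higher and 3 lower in NPC against 2i, 31.6% in all, beside 17% of all loci. In NPC against serum 54 were higher and 27 lower, 53.3%, beside 29.3% of all loci. Among all window pairs of this locus less than 96 kb apart, 23.7% and 46.7% were called in these 2 comparisons. Contact between domains 3 and 6, across the poorly covered domains 4 and 5, was also higher in NPCs: 0.50 and 0.43, against 0.13 and 0.16 in serum and 0.24 and 0.08 in 2i. Of its 477 tested window pairs, 61 were higher and 4 lower in NPC against 2i (13.6% in all), and 108 were higher and 23 lower in NPC against serum (27.5%), shares below those of all loci. With window effects taken out, the means between domains 3 and 6 were 0.23 and 0.26 in NPCs, 0.10 and 0.14 in serum and 0.07 and -0.01 in 2i, and within domain 6 they were 0.26 and 0.33 in NPCs, 0.12 and 0.17 in serum and 0.10 and 0.08 in 2i, so the NPC libraries stayed above all ES libraries in both.

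Domain 7 and its contact with domain 6 were lower in NPCs than in 2i. Within domain 7 the mean was -0.11 and -0.01 in NPCs, 0.11 and 0.16 in serum and 0.27 and 0.21 in 2i. Of its 258 window pairs, 73 were lower and 12 higher in NPC against 2i, 32.9% in all, beside 17% of all loci. Among all window pairs of this locus, 23.7% below 96 kb and 17.9% from 96 to 304 kb were called in that comparison. With window effects taken out, the NPC libraries overlapped with 2i there (-0.02 and 0.06 in NPCs, 0.05 and 0.09 in 2i). Between domains 6 and 7 the mean was -0.37 and -0.47 in NPCs, -0.40 and -0.39 in serum and -0.11 and -0.10 in 2i. The 2i libraries were above all others, and they stayed so with window effects taken out. Domain 1 was highest in serum, at 0.42 and 0.42, against 0.11 and 0.13 in NPCs and -0.20 and -0.08 in 2i. With window effects taken out, domain 1 had 0.04 and 0.03 in NPCs, -0.19 and -0.11 in serum and -0.18 and -0.26 in 2i, so the ES groups overlapped and NPCs were highest.

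Window pairs held a median of 3 primer pairs. Of the 6153 window pairs of the locus, 5941 passed the filter. In NPC against serum 1624 were called (742 higher, 882 lower), 27.3%, beside 29.3% of the 15601 of all loci (13.9% higher, 15.3% lower). In serum against 2i 1268 were called (723 higher, 545 lower), 21.3%, beside 22% of all (11.8% higher, 10.3% lower). In NPC against 2i 720 were called (342 higher, 378 lower), 12.1%, beside 17% of all (8.51% higher, 8.47% lower). Each pair of these comparisons shares the libraries of 1 group. The median log2 fold change of the members was -0.05, 0.08 and 0.06 in the 3, beside -0.04, 0.05 and 0.04 over all loci.

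The counts depended on single libraries and on the scaling. They fell to 971 without serum replicate 1 and 877 without serum replicate 2 in NPC against serum, to 328 without 2i replicate 1 in NPC against 2i, and to 602, 462 and 532 without serum replicate 1, serum replicate 2 or 2i replicate 1 in serum against 2i. With plain TMM scaling and no distance trend the split was 273 higher and 786 lower in NPC against 2i and 468 higher and 694 lower in serum against 2i, and the medians were -0.08 and -0.09. With a distance trend shared by all loci it was 208 higher and 633 lower in NPC against 2i.

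Calls were more frequent at short range. In NPC against serum 46.7% of window pairs less than 96 kb apart were called, against 39.1% from 96 to 304 kb, 26.5% from 304 to 800 kb and 17% at 800 kb or more. In NPC against 2i the shares were 23.7, 17.9, 13.8 and 4.52%, and in serum against 2i 35.4, 33.0, 21.4 and 11.6%, over the same ranges. Counts per window pair also fall with distance, and their part in this order was not tested.

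Of the 10 largest rises named over both NPC comparisons, with 1 window pair in both, 9 had an end in domain 6. The exception, 34782392 with 35294392, joined domains 2 and 3. Several of the rises shared a window with a shifted primer. The window at 35982392 holds forward primer 370. Those at 35870392 and 35886392 hold forward primers 344 and 349, with 22.9 and 26.1% of pairs higher against 2i. With window effects taken out, 35374392 with 35886392 lost its call against 2i, at a log2 fold change of 0.74. Against serum, 35118392 and 34718392, each with 35982392, lost theirs, at 0.67 and 0.65. The other rises kept their call. The windows starting at 35870392 and 35966392, 96 kb apart, had 1731 and 2275 counts in NPCs, 897 and 1001 in serum and 624 and 942 in 2i. Per expected contact this was 0.79 and 1.05 (log2) in NPCs, -1.75 and -1.62 in serum and -1.24 and -0.82 in 2i. The log2 fold change was 1.94 against 2i (SE 0.19, edgeR adjusted p = 7.21e-06) and 2.61 against serum (SE 0.20, edgeR adjusted p = 3.15e-07). Each of these windows held 3 CTCF peaks in each of the 3 lists.

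The windows at 35822392 and 35982392, 160 kb apart, had 1075 and 939 counts in NPCs, 474 and 508 in serum and 543 and 629 in 2i, with a log2 fold change of 2.64 against serum (SE 0.20, edgeR adjusted p = 3.01e-07). Across domains, the windows at 35374392 and 35822392, 448 kb apart, had 492 and 399 counts in NPCs, 380 and 271 in serum and 187 and 203 in 2i, with a log2 fold change of 1.95 against 2i (SE 0.24, edgeR adjusted p = 5.52e-05). In all 3 pairs both NPC libraries were above both ES libraries, although the serum libraries are the deepest.

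The pairs with the largest fall in NPC against serum all shared the window at 36286392, which holds the fragment of forward primer 447. With the window at 36030392, 256 kb away, it had 484 and 343 counts in NPCs, 7130 and 8761 in serum and 1756 and 2048 in 2i. The log2 fold change was -2.66 against serum (SE 0.21, edgeR adjusted p = 3.55e-07), and pairs of forward primer 447 held 82.3% of those counts. With the window at 36094392, 192 kb away, it had 284 and 219 counts in NPCs, 4217 and 4061 in serum and 1388 and 1509 in 2i, a log2 fold change of -2.43 against serum (edgeR adjusted p = 4.59e-07) and -1.78 against 2i (edgeR adjusted p = 1.74e-05). These 2 pairs were still called with window effects taken out, while the other 3 pairs of this window were not.

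In serum against 2i, the 5 pairs with the largest fall all shared the window at 35982392, which holds the fragment of forward primer 370. With the window at 36046392, 64 kb away, it had 879 and 976 counts in serum, against 2684 and 2466 in 2i (log2 fold change -2.44, SE 0.18, edgeR adjusted p = 1.34e-06). With the window at 36110392, 128 kb away, it had 779 and 889 counts in serum, against 1791 and 1820 in 2i (-2.05, edgeR adjusted p = 5.25e-06). With window effects taken out the second stayed called, at -0.80, and the first did not. The largest rise joined the window at 36286392 to one in domain 5, with 7801 and 9054 counts in serum, against 952 and 1343 in 2i (2.19, SE 0.19, edgeR adjusted p = 5.38e-06).

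Of the 30 window pairs named by rule over the 3 comparisons, 15 lost their call once window effects were taken out, and all 30 kept it under the other settings tried. Over all called window pairs, 301 of 720 kept their call and direction in NPC against 2i with window effects taken out, 506 of 1624 in NPC against serum and 161 of 1268 in serum against 2i. For insulation the counts kept were 56 of 73, 56 of 82 and 38 of 68 in the same order. In insulation, 9 junctions in NPC against 2i and 11 in NPC against serum were called in the opposite direction.

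CTCF was mapped by ChIP-seq with 1 library and 1 input per group, so nothing in its comparison between groups has a replicate check. The authors' peak lists merged into 175 regions in the locus, 8.48 per 100 kb, against 1.56 to 8.61 in the other loci. The NPC list held 87 of them (49.7%), the serum list 156 (89.1%) and the 2i list 160 (91.4%). All 3 lists shared 85 regions, 58 were in both ES lists only, 17 in the 2i list only, 13 in the serum list only and 2 in the NPC list only. Over the genome the lists held 28860 peaks in NPCs, 50185 in serum and 56138 in 2i, so the NPC list is shorter everywhere, and the part of the list's length in these counts was not tested.

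Regions in all 3 lists were also the stronger ones. Their median fold enrichment over input, the authors' own value per peak, was 17.8 in the NPC list, 26.9 in the serum list and 23.8 in the 2i list, while regions in both ES lists only had medians of 11.3 in the serum list and 12.1 in the 2i list. The region with the highest fold enrichment in the serum list, chr17:35715073-35715909, had 19.8 in the NPC list, 73.5 in the serum list and 45.3 in the 2i list, and lay 10.9 kb from the boundary between domains 5 and 6. The strongest regions found in both ES lists only were chr17:34520181-34520554 (26.0 in serum, 40.7 in 2i), which lies between the fragments of the leading primer pair, and chr17:36335303-36335638 in domain 7 (38.3 in serum, 22 in 2i). The 2 regions of the NPC list only were chr17:35093364-35093543, with a fold enrichment of 18.6, and chr17:36521871-36522005, with 11.

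**Figure D5:**
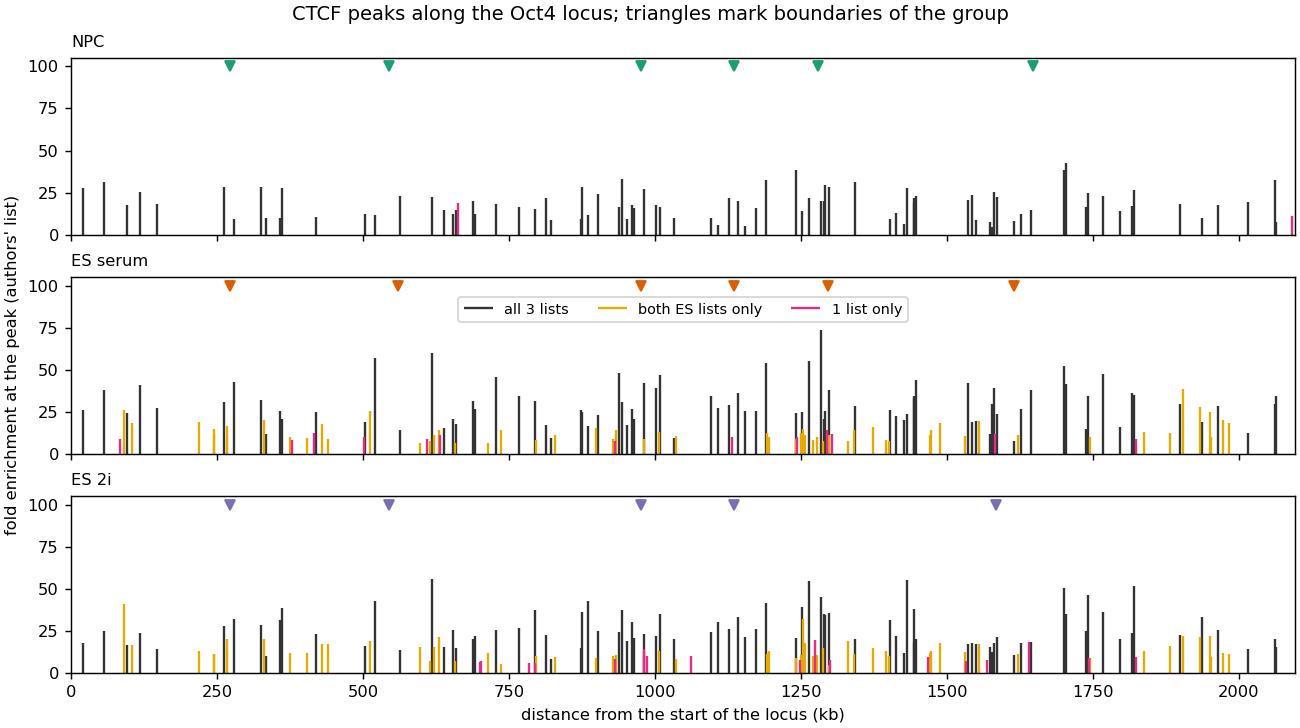
The 175 merged CTCF regions along the locus (kb from its start) by the lists that hold them, with the authors' fold enrichment over input in NPC, ES serum and ES 2i from top to bottom, and triangles at the boundaries of the group. Regions crowd between 1136 and 1584 kb, and regions in all 3 lists have the highest values.

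CTCF regions were densest in the middle of the locus. Domain 5 held 18.0 per 100 kb and domain 6 11.1, against 9.72 in domain 3, 8.75 in domain 4, 6.45 in domain 7, 6.25 in domain 2 and 5.15 in domain 1. Most boundaries had a region close by. In the serum list the nearest peak was 4.88 kb from the boundary at 272 kb, 4.98 kb from that at 976 kb, 3.64 kb from that at 1136 kb, 1.47 kb from that at 1296 kb and 1.64 kb from that at 1616 kb. The boundary at 34974392 (544 kb) was the exception, with no region within 16 kb and the nearest 18.5 kb away in all 3 lists, although it was the deepest boundary of NPCs. At the next junction, where serum had its minimum, a region lay 2.55 kb away in all 3 lists. With regions this dense, proximity is common: 85 of the 112 junctions had an NPC peak within 1 window and 102 of 112 had one in each ES list. The mean score of junctions with a peak was -0.02 in both NPC libraries, against 0.06 without, and about -0.007 in both serum libraries, against 0.07 without. These means differ by much less than the SD of the scores along the locus, which was 0.492 to 0.621.

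Junctions next to a CTCF region absent from the NPC list did not differ in 1 direction of insulation. At the 45 junctions next to a region in both ES lists only, 15 were higher and 16 lower in NPC against 2i, and 15 higher and 17 lower in NPC against serum. The median differences were 0.04 and -0.06, beside 0.05 and -0.07 over all junctions. At the 55 junctions next to a region in all 3 lists, 16 were higher and 19 lower in NPC against 2i. In NPC against serum 19 of them were higher and 25 lower. A junction could be next to regions of several kinds, so these sets overlap, and the 45 were not all without an NPC peak nearby. Next to is narrower here than within 1 window, where 85 junctions had an NPC peak. The counts thus do not compare junctions with and without CTCF in NPCs. Over all 112 junctions 65.2% were called in NPC against 2i (36 higher, 37 lower) and 73.2% in NPC against serum (35 higher, 47 lower).

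The authors' deposited classification of 4 kb bin pairs gave 2297 pixels in the locus outside the windows left out, of which 1570 were in a looping class and 727 were background. The classes that the authors name with es were high in the serum libraries and are called serum here. Of the looping pixels, 863 were constitutive, 267 shared by NPC and 2i, 101 in NPC only, 157 in serum only, 52 in 2i only, 96 shared by serum and 2i and 34 shared by NPC and serum. Constitutive pixels were short, at a median distance of 96 kb, and 66.5% of them lay within 1 domain. This was not theirs alone: 64.0% of the pixels shared by NPC and 2i lay within 1 domain. Those shared by serum and 2i had a median of 88 kb. Of the background pixels, 39.1% lay within 1 domain. Pixels also cluster: the 863 constitutive pixels form 64 clusters and the 101 NPC-only pixels 13. The serum-only pixels spanned a median of 604 kb and 26.1% lay within 1 domain, and the NPC-only pixels spanned 252 kb with 35.6% within 1 domain. Domain 3 held 264 of the 863 constitutive pixels. The NPC-only pixels fell into 5 places alone: 36 within domain 7, 28 between domains 6 and 7, 21 between domains 3 and 6, 11 between domains 5 and 7 and 5 between domains 2 and 4. These classes come from the same libraries and are no second measurement of the contacts above.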

How the data were processed

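The series holds 5C and ChIP-seq of mouse cells, and the 6 untreated 5C libraries were used here, 2 in each of NPC, ES serum and ES 2i, with total counts of 11784821 to 26533530 within and between loci. The authors deposited a table of raw counts per primer pair, a table of processed observed values and classification scores in 4 kb bins, and CTCF peak lists with a fold enrichment over input and a −log10 q-value per peak. Per the submitters' processing notes, Bowtie served for the 5C reads and MACS2 for the peaks, both on mm9. Their versions are not stated in the labels. A further 29 columns of per-sample values in the deposited tables were not used.

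Counts of forward-reverse pairs were summed over pairs of 16 kb windows. The expected count of each library and locus came from a lowess curve (span 0.5) of log mean count plus 0.5 on log distance (statsmodels 0.14.6). Window pairs and primer pairs were tested over all 7 loci in 1 fit of the 6 libraries with edgeR 4.0.16 (glmQLFit, glmQLFTest, filterByExpr, TMM, the expected counts as offset), and p-values were adjusted by Benjamini-Hochberg over all features tested. Insulation used 10 windows on each side, a pseudocount of 1 and at least 25 window pairs, and was tested with limma 3.58.1 (trend) over all loci. Boundaries were minima within 3 windows on either side with a prominence of at least 0.2 and a score below 0 in both libraries. DESeq2 1.42.0 was an alternative. The scripts were checked on simulated data.

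CTCF peaks of the 3 lists were merged where they overlapped by at least 1 bp, and boundaries in 2 groups were taken as shared within 1 window. Named window pairs were, per comparison, the 5 that rose most and the 5 that fell most among called pairs at least 2 windows apart, with both groups fully separated, no primer pair above 50% of the counts and a mean of at least 50 counts per library in the lower group. Named primer pairs were the 10 with the highest mean share. Named junctions were the boundaries and, per comparison, the 3 largest and 3 smallest called differences, and named CTCF regions were those near boundaries or in 1 or 2 lists only. The members, lists and rules were chosen with earlier results of these data known. Replicate numbers are shared between groups in the labels, which do not say that they pair the libraries. 5C products carry no molecular identifiers, so counts are no independent molecules.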

Additional observations from a re-analysis of the deposited data

Results flagged for a closer look

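Primer pairs of equal orientation (forward with forward, or reverse with reverse) cannot give a proper 5C product, and they were used in no comparison. Within the Oct4 locus they nevertheless held 0.153 and 0.121% of the counts in NPCs, 0.424 and 0.279% in serum and 0.151 and 0.242% in 2i, which was 5337 and 4018, 32834 and 21738, and 5485 and 9125 counts. Both serum libraries were above all others.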

How the results depend on the processing

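In the Oct4 locus, 19 of 131 windows carried no value, the median window pair rests on 3 primer pairs, and each group has 2 libraries, so leaving 1 out leaves an arm with a single library that is assumed to vary like the others. Called window pairs numbered 407, 704 and 567 with 32 kb windows in NPC against 2i, NPC against serum and serum against 2i, 2747 and 2172 with 8 kb windows in the last 2, and 823 and 244 in the last 2 with window effects taken out. Leaving out each library gave 328 to 651, 877 to 1604 and 462 to 1451 window pairs. Called primer pairs numbered 1307 with plain TMM scaling in NPC against 2i, and 396, 667 and 84 in the 3 comparisons with primer effects taken out. Leaving out each library gave 95 to 645, 1145 to 2691 and 535 to 2829 primer pairs. Called junctions stayed within 1.5 times their number in all alternatives run. ES cells in 2i had 9 boundaries with a prominence of at least 0.1, 8 with 5 windows on each side and 3 with 20. Among pairs at least 32 kb apart, the leading pairs held 27.9% in NPCs, 32.5% in serum and 22.7% in 2i. The junction at 35694392 turned to 0.18 in NPC against 2i with 20 windows on each side. For primer pairs, that of primers 24 and 5 turned to 1.81 (NPC against serum) and -0.76 (serum against 2i), and that of 447 and 446 to 1.08 in both NPC comparisons, with primer effects taken out. Without 1 library, values ran from -0.046 to 0.58 for primers 24 and 5 (NPC against 2i), from -0.78 to 0.20 for 447 and 235 (serum against 2i) and from -0.082 to 1.01 for 406 and 190 (NPC against 2i). Of the alternative values of named results, 435 of 450 for window pairs, 274 of 281 for junctions and 87 of 120 for primer pairs kept their direction and their side of the threshold. Except where a value shows it, the cause was not tested. With the replicate number as a block, 968, 1827 and 1508 window pairs, 79, 91 and 75 junctions and 883, 3366 and 2518 primer pairs were called, and the pair of primers 447 and 235 was called in NPC against 2i (edgeR adjusted p = 0.0364) and NPC against serum (edgeR adjusted p = 8.46e-04). Deviations of libraries with the same number correlated at 0.0739, 0.0093 and 0.0181, over window pairs that are no independent points. With 2 libraries per group this cannot show whether the libraries are paired.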
